A study of Mus musculus with 47 samples.

Results

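Cadherins are calcium-dependent adhesion proteins of the cell surface, and the genes described here are the classical and closely related cadherins named Cdh followed by a number, without the endothelial cadherin Cdh5, together with every protocadherin gene (symbols that begin with Pcdh). The deposited gene table held 93 such gene lines with 90 different symbols among its 45706 genes. By role they were 5 type I cadherins, 12 type II cadherins, 5 other cadherins, 4 delta-1, 5 delta-2 and 3 other non-clustered protocadherins, and the clustered protocadherins with 15 alpha, 22 beta and 22 gamma genes. The symbols Pcdha4, Pcdha11 and Pcdhga8 each stood on 2 lines with different Ensembl identifiers, which are given where such a line is named.

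Polyadenylated RNA was sequenced from the prefrontal cortex (PFC) and the hippocampus of diet-induced obese mice that had received saline, an inhibitor of PICK1 (PICK1i) or an inhibitor of PSD-95 (PSD-95i); both targets are scaffold proteins of glutamate receptors, PSD-95 anchoring them at the postsynaptic membrane and PICK1 acting in the trafficking of AMPA receptors. Each group had 8 libraries, except hippocampus after saline with 7, which gave 47 in all with 5378175 to 13139410 counts assigned to genes. Injections were daily for 5 days, at 56 mg/kg of mPD5, 25 mg/kg of UCCB01-147, or isotonic saline, and mice were killed 2 hours after the last one. From general knowledge of the compounds, mPD5 is a peptide inhibitor of PICK1 and UCCB01-147 one of PSD-95; the labels themselves do not pair them. Strain, genotype, sex and age of the mice are not given in the labels. The treatment text names the hypothalamus as the tissue taken and 6 saline animals, so how closely it describes these libraries is uncertain. All groups shared the obesity model, and no lean group was analysed here. The labels do not state that the libraries of a group came from separate mice, so p-values measure the spread between libraries, which may in part be technical.

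Classical cadherins bind the same or a related cadherin on the neighbouring cell through their extracellular repeats and are tied to actin by catenins at their cytoplasmic tail. Type II cadherins and non-clustered protocadherins are expressed in different combinations by different neuron populations, and several are known to act in the choice and maintenance of synaptic partners. The clustered protocadherins are made from arrays of variable exons, of which each neuron uses its own selection, and serve in self-recognition of dendrites and axons.

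Markers of the labelled tissues set the regions apart in some lists and not in others. After saline, the summed level of 7 dentate granule cell markers was 147 to 206 CPM in PFC and 251 to 714 in hippocampus, where CPM is the usual measure of a gene's counts relative to the scaled total of its library. The summed level of 6 superficial cortical layer markers was 801 to 1600 CPM in PFC and 343 to 421 in hippocampus. Sums of 8 CA2 and CA3 pyramidal markers also lay apart, at 118 to 139 CPM in PFC and 467 to 662 in hippocampus. Those of 6 CA1 pyramidal markers overlapped, at 436 to 490 CPM in PFC and 216 to 712 in hippocampus. Those of 8 deep cortical layer markers went against the label, at 86.8 to 330 CPM in PFC and 321 to 527 in hippocampus. Glia moved with the region too: all 8 oligodendrocyte markers were higher in hippocampus by edgeR's quasi-likelihood test, with sums of 3090 to 7230 CPM against 1850 to 3470. In bulk tissue, fewer cells of a type and less RNA per cell cannot be told apart, and the part of cell composition in the differences between the regions was not tested. Besides this, 7 libraries each stood apart from the rest of their group by markers of another brain structure. Hippocampus PICK1i replicate 2 and hippocampus saline replicate 1 had striatal sums of 1660 and 2510 CPM, where the medians of their groups were 144 and 152. Hippocampus PICK1i replicate 7 had a thalamic sum of 2040 CPM against a group median of 158. Its defining hippocampal markers were low, with Fibcd1 at 26.7 CPM and a dentate sum of 182 CPM, and its excitatory neuron sum was 1220 CPM against a median of 8150. Hippocampus PICK1i replicate 2 had a lower dentate sum still, 137 CPM, with Prox1 at 18.4 CPM, while its Fibcd1 was at 195 CPM. Olfactory bulb markers were high in PFC PICK1i replicate 6 (489 CPM) and PFC PSD-95i replicate 6 (99.2 CPM), and choroid plexus markers in hippocampus PICK1i replicate 8 (2300 CPM) and hippocampus saline replicate 5 (5660 CPM). A rule that looks for 1 library apart from its group does not reach several at once. Hippocampus PSD-95i replicates 3, 6 and 7 had choroid plexus sums of 3390, 3010 and 2540 CPM against a group median of 215, and PFC saline replicate 1 had a striatal sum of 682 CPM against 240. The regional differences were therefore also fitted without the 7 libraries and, as a choice made after seeing the data, without all 11.

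Most cadherins and non-clustered protocadherins that could be tested differed between hippocampus and PFC, and most clustered protocadherins did not pass. Of the 93 lines, 87 had enough counts for the test across both regions. After saline, 13 were higher and 23 lower in hippocampus than in PFC at an adjusted p under 0.05 (edgeR quasi-likelihood test), 41.4% of those tested, beside 38.3% of all 15658 genes (19.5% higher and 18.8% lower). The share for the family as a whole was therefore near that of genes in general. At a change of at least 2-fold, 15 members passed (8 higher, 7 lower), where 8.3% of all genes did (4.23% higher, 4.07% lower). Among the 29 tested members outside the clusters, 25 passed (11 higher, 14 lower), with a median absolute log2 difference of 1.01. Among the 58 tested clustered genes 11 passed (2 higher, 9 lower), with a median of 0.18, beside a median of 0.206 for all genes. In 18 members the libraries of the regions did not overlap at all, 9 higher and 9 lower in hippocampus, beside 8% and 8.26% of all genes.

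**Figure D1:**
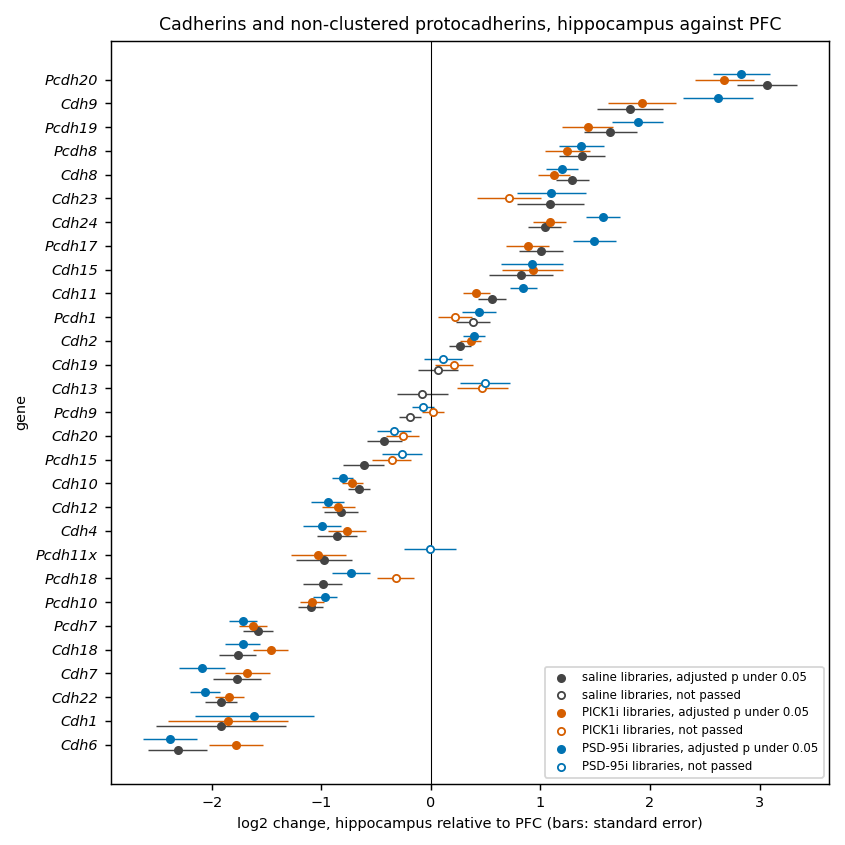
Log2 difference between hippocampus and PFC (horizontal axis) for each tested cadherin and non-clustered protocadherin (vertical axis), with 1 symbol for each of the 3 treatments of the libraries, bars for 1 standard error and filled symbols for an adjusted p under 0.05. After saline, Pcdh20 lies farthest to the right at 3.07 and Cdh6 farthest to the left at −2.31, and their symbols for both inhibitors lie on the same side.

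Too few counts for the test were found in 6 lines. Cdh16, the kidney cadherin, had no count in any library, and Cdh17, the liver and intestine cadherin, had 5 counts over the 47 libraries. The totals were 51 for Pcdh12, a protocadherin of blood vessels, 57 for Pcdhb1, 134 for Cdh26 and 172 for Cdh3, the placental cadherin. Low as they were, Cdh26 lay between 0.247 and 1.62 CPM in hippocampus and between 0.0 and 0.412 CPM in PFC after saline.

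Among the type I cadherins, 4 were tested, of which 2 were higher and 2 lower in hippocampus. Cdh2, the neural cadherin of synaptic junctions, lay between 86.0 and 108 CPM in PFC (median 99.7) and between 97.5 and 137 CPM in hippocampus (median 121) after saline. The ranges overlapped, and the log2 difference of 0.27 (SE 0.10, edgeR adjusted p = 0.0353) was no longer called after leaving out any 1 of 8 of the 15 libraries: PFC replicate 3, 4, 6 or 7, or hippocampus replicate 2, 3, 4 or 5 (largest adjusted p = 0.0939). Cdh4, the retinal cadherin, was at 20.7 to 38.3 CPM in PFC (median 29.3) and 9.57 to 24.7 in hippocampus (median 14.6). Its upper hippocampal libraries reached into the PFC range, and it was lower in hippocampus by a log2 difference of −0.86 (SE 0.18, adjusted p = 0.000142). Cdh1, the epithelial cadherin, was low in both regions, at 0.622 to 7.0 CPM in PFC and 0.259 to 2.13 in hippocampus, with a log2 difference of −1.92 (SE 0.60, adjusted p = 0.009). Cdh15, known from muscle and cerebellum, was at 0.919 to 1.31 CPM in PFC and 1.0 to 2.38 in hippocampus. Its log2 difference of 0.82 (SE 0.29, adjusted p = 0.0232) was lost without hippocampus replicate 1, 5 or 7 in turn, with adjusted p of up to 0.0558, and was 0.65 (adjusted p = 0.0947) without the 7 libraries that stood apart. In fits of 1 region, Cdh1 had too few counts in hippocampus and Cdh15 too few in PFC. Both thus passed the filter through the region where they were higher, and their calls are not independent of it.

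All 12 type II cadherins could be tested, and 11 of them differed between the regions, 4 higher and 7 lower in hippocampus. Cdh9, which is known for its role at the mossy fibre synapses of dentate granule cells onto CA3 neurons, lay between 3.71 and 21.4 CPM in PFC (median 12) and between 31 and 58.5 CPM in hippocampus (median 46.3). Every hippocampal saline library was above every PFC one, and the log2 difference was 1.82 (SE 0.30, adjusted p = 4.39e-06). Cdh8, a cadherin of corticostriatal and hippocampal circuits, was at 13.8 to 21.4 CPM in PFC (median 16.7) and 29.9 to 55.3 in hippocampus (median 45.4). Again the regions did not overlap, with a log2 difference of 1.29 (SE 0.15, adjusted p = 2.32e-09). Cdh24 lay between 5.91 and 13.6 CPM in PFC (median 11.4) and between 17.7 and 31.7 in hippocampus (median 20.7), without overlap, and differed by 1.04 on the log2 scale (SE 0.15, adjusted p = 2.26e-07). Cdh11, first described in bone-forming cells, showed the smallest difference of the 4. It was at 45.8 to 68.5 CPM in PFC (median 47.5) and 70.1 to 91.0 in hippocampus (median 74.1), a log2 difference of 0.56 (SE 0.13, adjusted p = 0.000445).

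The type II cadherins that were lower in hippocampus included the largest differences in that direction. Cdh6 was at 9.95 to 19 CPM in PFC (median 12.7) and 1.27 to 4.72 in hippocampus (median 2.82), a log2 difference of −2.31 (SE 0.27, adjusted p = 1.64e-09). Cdh22 lay between 55.5 and 95.2 CPM in PFC (median 77.1) and between 11.9 and 27.3 in hippocampus (median 18.6), with a log2 difference of −1.92 (SE 0.14) and the smallest adjusted p of all members, 8.32e-15. For both genes the lowest PFC library was above the highest hippocampal one by a factor of more than 2. Cdh7 was at 18.1 to 24.1 CPM in PFC (median 21.3) and 4.09 to 9.65 in hippocampus (median 5.52), and Cdh18 at 19.9 to 28.3 (median 23.3) and 4.24 to 9.25 (median 7.84). Their log2 differences were −1.77 (SE 0.22, adjusted p = 7.78e-09) and −1.76 (SE 0.17, adjusted p = 8.26e-12), and neither overlapped between the regions. Cdh12 and Cdh10 were closer. Cdh12 was at 12.8 to 24.4 CPM in PFC (median 18.1) and 9.23 to 12 in hippocampus (median 10.3), a log2 difference of −0.82 (SE 0.16, adjusted p = 2.84e-05). Cdh10 was at 26.3 to 33.7 CPM (median 29.5) and 14.7 to 22.3 (median 19), a log2 difference of −0.66 (SE 0.10, adjusted p = 5.32e-07). The weakest of the 7 was Cdh20, at 20 to 27.2 CPM in PFC and 14.3 to 21.3 in hippocampus, where the ranges overlapped. Its log2 difference of −0.43 (SE 0.16, adjusted p = 0.0305) lost its call without PFC replicate 2 or 3 or hippocampus replicate 4 or 5 in turn (adjusted p up to 0.0603). Without the 7 libraries Cdh20 was also lower after PICK1i (log2 −0.38, adjusted p = 0.0351) and PSD-95i (log2 −0.35, adjusted p = 0.0209), where it had not passed with them. Cdh19, which is known from Schwann cells and other glia, was the type II cadherin that did not pass, at 7.83 to 12.1 CPM in PFC and 9.75 to 14.7 in hippocampus (log2 difference 0.06, adjusted p = 0.815).

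Some neighbouring genes of the type II group shared a direction and others did not. On mouse chromosome 15 (GRCm38), Cdh6 (chr15:13028701-13173675), Cdh9 (chr15:16728756-16857094), Cdh10 (chr15:18818947-19014236), Cdh12 (chr15:20449265-21589533) and Cdh18 (chr15:22549022-23474418) follow each other, and Cdh9 was higher in hippocampus whereas the other 4 were lower. On chromosome 1, Cdh20 (chr1:104768529-104995481) and Cdh7 (chr1:109982431-110140157) were both lower in hippocampus, and the next member, Cdh19 (chr1:110888326-110977584), was not called. Cdh8 (chr8:99024471-99416471) and Cdh11 (chr8:102632095-102785642) on chromosome 8 were both higher. Annotated exons on the other strand overlap those of Cdh8 (Gm15679), Cdh9 (Gm49127), Pcdh7, Pcdh8, Pcdh10 and Pcdh19, and Gm49685 overlaps Cdh12 on its own strand. No source used here says whether the quantification used strand, so reads of such partners may be held in these values.

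Among the other cadherins, Cdh13 and Cdh23 were tested. Cdh13, which is held in the membrane by a lipid anchor and lacks a cytoplasmic tail, lay between 24.4 and 99.2 CPM in PFC (median 61.3) and between 43.2 and 81.2 in hippocampus (median 48.8) after saline. Its spread within PFC was wider than the difference between the regions (log2 −0.08, adjusted p = 0.827), and the sign turned to 0.07 without PFC replicate 1. Cdh23, which forms the tip links of hair cells with Pcdh15, was at 0.851 to 3.01 CPM in PFC (median 1.73) and 3.06 to 4.87 in hippocampus (median 4.22). The highest PFC library lay just under the lowest hippocampal one, and the log2 difference was 1.09 (SE 0.31, adjusted p = 0.00365). Ependymal markers moved the same way, with sums of 4.33 to 6.32 CPM in PFC and 16.9 to 58.7 in hippocampus, and their part in the Cdh23 difference was not tested.

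Of the 4 delta-1 protocadherins, Pcdh7 and Pcdh11x were lower in hippocampus and Pcdh1 and Pcdh9 did not pass. Delta-1 proteins carry a conserved tail motif that binds protein phosphatase 1. Pcdh7 (chr5:57717967-58133230) lay between 70.1 and 126 CPM in PFC (median 104) and between 25.0 and 47.1 in hippocampus (median 32.6). No hippocampal saline library reached the lowest PFC one, and the log2 difference was −1.58 (SE 0.14, adjusted p = 5.38e-13). Pcdh11x, an X-linked gene, was at 2.41 to 3.94 CPM in PFC (median 3.23) and 0.629 to 2.64 in hippocampus (median 1.61), with a log2 difference of −0.98 (SE 0.26, adjusted p = 0.00212). Pcdh9 was at 61.9 to 96.4 CPM in PFC and 64.9 to 72.6 in hippocampus (log2 −0.19, adjusted p = 0.144), and passed when only the 2 saline groups were fitted (adjusted p = 0.0447). Pcdh1 was at 208 to 263 CPM in PFC (median 224) and 265 to 367 in hippocampus (median 294). Its libraries did not overlap, yet the log2 difference of 0.38 (SE 0.16) had an adjusted p of 0.0507. It passed without hippocampus replicate 6 (log2 0.41, adjusted p = 0.0488) and, without the 7 libraries that stood apart, at a log2 difference of 0.41 (adjusted p = 0.000288). It also passed when only the 2 saline groups were fitted (adjusted p = 8.09e-05), and after PICK1i without the 7 libraries (log2 0.44, adjusted p = 0.000118).

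The 5 delta-2 protocadherins were all called between the regions, 3 higher and 2 lower in hippocampus. This group includes proteins that recruit the WAVE actin regulatory complex. Pcdh19 (chrX:133582860-133688987), whose mutations cause an epilepsy in humans, lay between 9.97 and 15.2 CPM in PFC (median 14.6) and between 33.2 and 51.1 in hippocampus (median 39). The regions were well separated, with a log2 difference of 1.64 (SE 0.24, adjusted p = 3.26e-07). Pcdh8, the activity-regulated protocadherin also called arcadlin, was at 18.6 to 32.7 CPM in PFC (median 27.8) and 54.9 to 86.5 in hippocampus (median 71.8), a log2 difference of 1.38 (SE 0.21, adjusted p = 6.99e-07). Pcdh17, known at corticostriatal synapses, lay between 26.1 and 76.5 CPM in PFC (median 41) and between 66.6 and 101 in hippocampus (median 83.2). Here 1 PFC library, replicate 1 at 76.5 CPM, lay inside the hippocampal range, while the next PFC library was at 45.7. The log2 difference of Pcdh17 was 1.01 (SE 0.20, adjusted p = 7.21e-05). Replicate 1 is the library with the striatal marker sum of 682 CPM, and with any 1 library left out the difference of Pcdh17 lay between 0.93 and 1.18 and stayed called. Pcdh10, a protocadherin of the basal ganglia and olfactory system, was at 158 to 237 CPM in PFC (median 178) and 76.2 to 95.7 in hippocampus (median 89.6), a log2 difference of −1.10 (SE 0.12, adjusted p = 1.17e-10). Pcdh18 was low, at 4.17 to 6.47 CPM in PFC (median 5.31) and 1.89 to 3.63 in hippocampus (median 2.47), without overlap, and differed by −0.99 (SE 0.18, adjusted p = 1.29e-05). After PICK1i it did not pass with every library or without the 11, and passed without the 7 (log2 −0.41, adjusted p = 0.0486).

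Pcdh20 showed the largest difference of any tested member. Its PFC saline libraries lay between 6.32 and 10.1 CPM (median 7.63) and its hippocampal saline libraries between 53.3 and 78.3 CPM (median 63.3). The lowest hippocampal library was thus at more than 5 times the highest PFC one, and the log2 difference was 3.07 (SE 0.27, adjusted p = 2.53e-12). Pcdh15, the partner of Cdh23 in hair cells, went the other way, at 14.3 to 20.4 CPM in PFC (median 15.7) and 7.17 to 15.5 in hippocampus (median 10.6), with a log2 difference of −0.62 (SE 0.19, adjusted p = 0.00727). This call was lost without the 11 libraries (log2 −0.48, adjusted p = 0.0542).

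**Figure D2:**
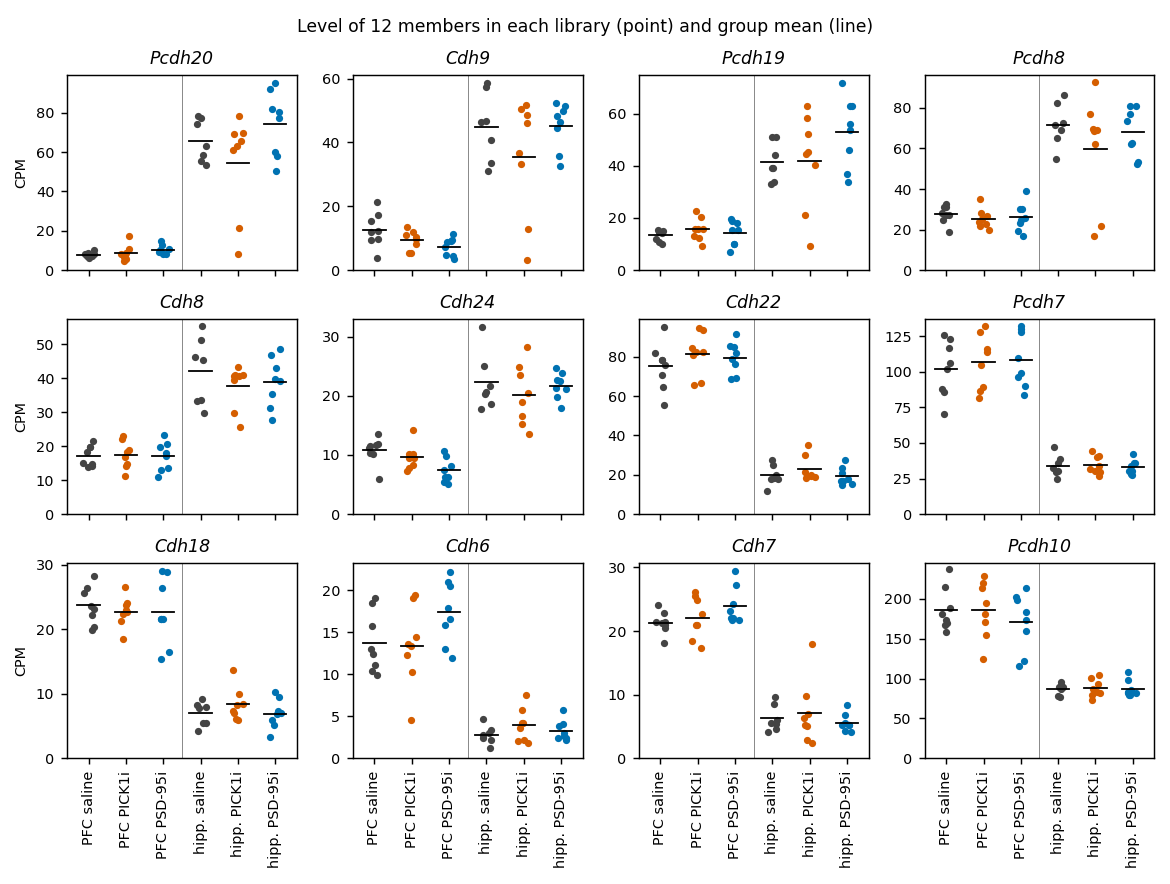
Level of 12 members in every library, in CPM (vertical axis, from 0), with 1 point per library, a line for the group mean and the 6 groups of tissue and treatment along the horizontal axis. Pcdh20 is at 53.3 to 78.3 CPM in hippocampus after saline and at 6.32 to 10.1 in PFC, and hippocampus PICK1i replicates 2 and 7 lie below the other hippocampal libraries at 21.4 and 7.93.

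Pcdh8 (chr14:79766775-79771312), Pcdh17 (chr14:84443563-84539002) and Pcdh20 (chr14:88464743-88471396), which were all higher in hippocampus, are successive members on chromosome 14, and Pcdh9 (chr14:93013410-93890679), the next one, was not called. Their promoter sequences are shown because these 3 neighbours were higher together, beside that of Cdh6, the member farthest in the other direction. Each is the 250 bases before the RefSeq start site in GRCm38.p6, written 5′ to 3′ on the gene's strand, and capitals mark matches on either strand to the motifs searched. These were the GC box GGGCGG, the TATA box TATAAA, the cAMP response element TGACGTCA and the E-box CAGCTG, none of which contains another.
Pcdh8: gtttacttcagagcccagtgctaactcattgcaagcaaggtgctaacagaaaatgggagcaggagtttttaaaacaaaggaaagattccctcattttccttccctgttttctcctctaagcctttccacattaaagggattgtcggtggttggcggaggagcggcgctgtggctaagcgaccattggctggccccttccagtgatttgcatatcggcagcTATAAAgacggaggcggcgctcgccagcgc
Pcdh17: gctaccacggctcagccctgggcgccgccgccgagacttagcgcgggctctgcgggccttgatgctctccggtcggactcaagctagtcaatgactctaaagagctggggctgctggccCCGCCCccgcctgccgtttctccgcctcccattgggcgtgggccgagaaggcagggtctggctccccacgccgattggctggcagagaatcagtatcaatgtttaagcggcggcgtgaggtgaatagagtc
Pcdh20: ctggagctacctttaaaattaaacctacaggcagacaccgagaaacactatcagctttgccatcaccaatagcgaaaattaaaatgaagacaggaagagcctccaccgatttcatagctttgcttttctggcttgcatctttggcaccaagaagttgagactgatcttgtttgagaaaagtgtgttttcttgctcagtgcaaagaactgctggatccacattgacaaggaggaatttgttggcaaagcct
Cdh6: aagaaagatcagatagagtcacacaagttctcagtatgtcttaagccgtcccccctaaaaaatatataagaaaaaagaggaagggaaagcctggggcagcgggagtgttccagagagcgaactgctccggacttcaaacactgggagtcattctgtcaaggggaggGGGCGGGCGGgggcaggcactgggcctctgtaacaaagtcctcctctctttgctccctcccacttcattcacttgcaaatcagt

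The 3 neighbours differed in these windows. Pcdh17 (chr14:84443313-84443562, plus strand) had 1 GC box, 21 CpG dinucleotides and 64.8% G and C. Pcdh8 (chr14:79771313-79771562, minus strand) had 1 TATA box, 11 CpG and 51.2% G and C. Pcdh20 (chr14:88471397-88471646, minus strand) had no match, 3 CpG and 42.4% G and C. Cdh6 (chr15:13173676-13173925, minus strand) had 2 overlapping GC boxes, 6 CpG and 51.2% G and C. Members on chromosome 18, which are all clustered protocadherins, Cdh2, Pcdh1 and Pcdh12, were left out of the promoter count. RefSeq promoters of other members covered 22 genes with 25 start sites. Cdh7 and Pcdh9 had more than 1 start site, and the windows of Pcdh9 overlapped. Of the 25, 9 (36%) held a GC box, 2 (8.0%) a TATA box, 2 (8.0%) the E-box and 0 the cAMP response element. Over all 32817 promoters of the same length, from which chromosome 18 was not left out, the shares were 32.7%, 12.4%, 13% and 1.55%. The median number of CpG was 10 in the promoters of the members kept and 6 in all.

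The regional pattern was also measured after each inhibitor, in other libraries. After PICK1i, 33 members passed (10 higher, 23 lower; 37.9%), beside 36.8% of all genes (18.5% and 18.3%). After PSD-95i, 39 passed (13 higher, 26 lower; 44.8%), beside 45% of all genes (23.1% and 21.9%). In all 3 treatments 29 members passed in the same direction, 10 higher and 19 lower, beside 26.9% of all genes (13.4% and 13.5%), and 43 of the 87 passed in none. On the log2 scale Pcdh20 differed by 2.68 with PICK1i and 2.83 with PSD-95i, Cdh9 by 1.93 and 2.62, and Cdh6 by −1.78 and −2.38. Pcdh11x did not keep its saline difference in both, with −1.03 for PICK1i and −0.01 for PSD-95i.

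In hippocampus after PICK1i, 2 of the libraries that stood apart held the 2 lowest values of several members. Replicate 2, with the high striatal sum and a dentate sum of 137 CPM, had Pcdh20 at 21.4, Cdh9 at 13, Pcdh19 at 21.2 and Pcdh8 at 16.8 CPM. Replicate 7, with the high thalamic sum, had Pcdh20 at 7.93, Cdh9 at 3.05, Pcdh19 at 9.31 and Pcdh8 at 22 CPM. Replicate 7 was also the highest of its group for Cdh7 (18 CPM) and Pcdh18 (7.63 CPM), which were lower in hippocampus than in PFC after saline. Without the 3 libraries of that group that stood apart, Pcdh20 was at 68.6 ± 6.47 CPM (SD, n = 5), Cdh9 at 46 ± 7.53, Pcdh8 at 73.9 ± 11.7, Pcdh19 at 52.6 ± 8.05 and Cdh7 at 4.39 ± 1.69. With them the means were 54.5, 35.3, 59.7, 41.7 and 7.09 CPM. The log2 differences between the regions after PICK1i became 3.25 for Pcdh20, 2.2 for Cdh9 and −2.35 for Cdh7, and 18 members were called higher after PICK1i in place of 10. Over all genes the share called higher was 19.4% in that fit and 18.5% with every library. Without the 11 libraries 19 members were higher after PICK1i, beside 19% of all genes, and 13 after PSD-95i, as with every library. Pcdhb16 (log2 0.52, adjusted p = 0.005), Pcdhb4 (log2 0.76, adjusted p = 0.0041) and Cdh23 (log2 1.45, adjusted p = 6.07e-06) were among those gained without the 7. After saline, where 2 libraries were left out, Pcdh20 was at 3.03 and Cdh9 at 1.71.

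The clustered protocadherins differed little between the regions, and sums over each cluster gave small differences. The alpha sum lay between 101 and 154 CPM in PFC (median 118) and between 86.7 and 122 in hippocampus (median 92.3) after saline. The ranges overlapped, with a log2 difference of −0.35 (SE 0.13, adjusted p = 0.0373). This call was lost without the 7 libraries that stood apart (log2 −0.31, adjusted p = 0.0674) and without the filter on low counts (adjusted p = 0.0784). The sum of the alpha genes numbered 1 to 12, without the C-type ones, was lower in hippocampus in each treatment, by −0.37 after saline (adjusted p = 0.0064), −0.36 with PICK1i (adjusted p = 0.00738) and −0.41 with PSD-95i (adjusted p = 0.00156). After PICK1i the whole alpha sum differed by −0.31 (adjusted p = 0.0575) and after PSD-95i by −0.35 (adjusted p = 0.0246), which was −0.34 (adjusted p = 0.0596) without the 11 libraries. All 15 alpha genes had a log2 difference below 0 after saline, and 3 of them passed. The beta sum was level, at 178 ± 17.6 CPM in PFC (SD, n = 8) and 189 ± 19.8 in hippocampus (SD, n = 7; log2 0.08, edgeR adjusted p = 0.432). The gamma sum was 823 ± 39.4 CPM in PFC and 763 ± 40.4 in hippocampus after saline (log2 −0.12, adjusted p = 0.175). It was lower in hippocampus after PICK1i (log2 −0.22, adjusted p = 0.00631) and PSD-95i (log2 −0.22, adjusted p = 0.00514), although after PICK1i not without the 7 libraries that stood apart (log2 −0.11, adjusted p = 0.105). The sum of the C-type gamma genes alone was lower by −0.13 after saline (adjusted p = 0.048), −0.24 with PICK1i (adjusted p = 0.000231) and −0.22 with PSD-95i (adjusted p = 0.000532). Pcdhgc5 held most of this sum. Sums of C-type alpha, A-type gamma and B-type gamma genes passed in no treatment. Their smallest adjusted p was 0.0617 (edgeR), for A-type gamma after PSD-95i. No such partial sum was refitted without the 7 or the 11 libraries. Genes of 1 type share exons with the rest of their cluster, so partial sums still depend on how shared reads were split.

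**Figure D3:**
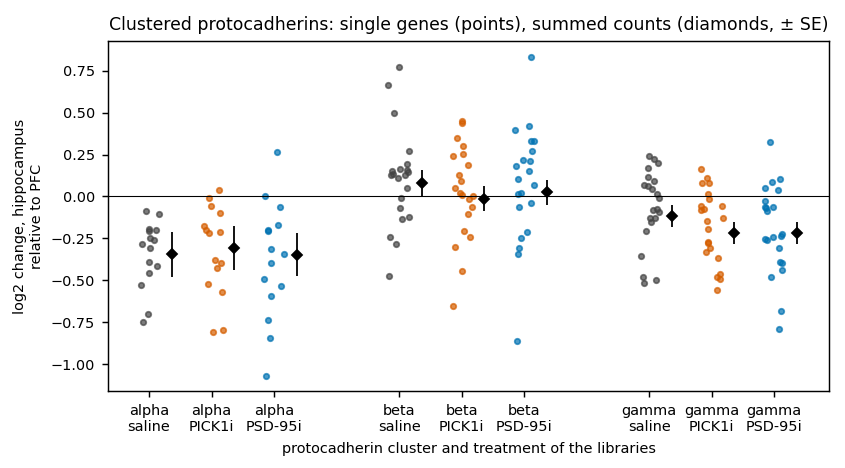
Log2 difference between hippocampus and PFC (vertical axis) for each tested alpha, beta and gamma gene (points) and for the summed counts of each cluster (diamonds, bars for 1 standard error), by treatment of the libraries along the horizontal axis. The alpha sums lie at −0.35 (saline), −0.31 (PICK1i) and −0.35 (PSD-95i), and the beta sums lie near 0.

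Single clustered genes ranged more widely than their sums. In the alpha cluster Pcdha8 had the lowest log2 difference after saline, −0.75 (adjusted p = 0.116), from 0.425 to 1.95 CPM in PFC and 0.325 to 1.41 in hippocampus. The alpha line nearest 0 was Pcdha4 (ENSMUSG00000103458) at −0.09 (adjusted p = 0.687), which the GENCODE M21 annotation holds as a read-through model, and its sign turned to 0.03 without PFC replicate 2. Exons of this line overlap those of gamma genes, and among alpha genes only those of the other Pcdha4 line, but it was counted in the alpha sums. In the beta cluster Pcdhb4 lay between 1.87 and 4.23 CPM in PFC (median 2.55) and between 3.16 and 5.94 in hippocampus (median 5.01), a log2 difference of 0.77 (SE 0.20, adjusted p = 0.00194). Pcdhb16 also was higher, at 5.11 to 8.67 CPM in PFC (median 6.18) and 8.01 to 12.3 in hippocampus (median 9.86), a log2 difference of 0.66 (SE 0.15, adjusted p = 0.000484). Both ranges overlapped between the regions. At the other end Pcdhb8 was at 5.86 to 8.37 CPM in PFC and 2.6 to 8.02 in hippocampus. Its log2 difference of −0.47 (adjusted p = 0.0365) was lost without PFC replicate 2 or 4 or hippocampus replicate 2, 3, 5 or 7 in turn (adjusted p up to 0.108), and without the 7 libraries (log2 −0.43, adjusted p = 0.0621). In the gamma cluster Pcdhga7 was lowest, at 13.5 to 20.2 CPM in PFC (median 16.4) and 9.65 to 17.1 in hippocampus (median 11.5), a log2 difference of −0.52 (adjusted p = 0.000732). Pcdhga10 was highest at 0.24 (adjusted p = 0.472). Pcdhgc5, a gamma gene of the C type that is expressed more evenly over neurons than the others, was at 465 to 522 CPM in PFC and 412 to 476 in hippocampus. It passed after saline, but not without hippocampus replicate 5 (log2 −0.14, adjusted p = 0.0587).

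Reads of the clusters are hard to assign to single genes, since the genes of a cluster share their constant exons or resemble each other. Of all 52-base stretches of the annotated exons, 43.9% to 98.4% (median 59.9%) were shared with another gene for alpha genes and 31.8% to 65.1% (median 44.3%) for gamma genes. For beta genes, which have no shared constant exons, the share was 0% to 11.2% (median 3.9%), and for the members outside the clusters at most 1.84%. The alpha and gamma gene values therefore depend on how the quantification split shared reads, and are uncertain gene by gene. The second Pcdhga8 line (ENSMUSG00000023036) is Pcdhgc4 in GENCODE M21.

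Levels per exon length put the members on a common scale within each region. In counts per kilobase of exon, scaled to the same total over all genes as CPM, Pcdhgc5 had rank 1 in both, at 201 ± 11.1 in PFC (SD, n = 8) and 188 ± 9.35 in hippocampus (SD, n = 7). Pcdh1 had rank 2 in both, at 81.2 and 110 on the same scale. Below them the order differed between the regions. Cdh22 (62.0 and 17) stood at rank 3 in PFC and rank 16 in hippocampus, whereas Pcdh7 (29.6 and 10.2) stood at rank 7 and rank 29. Pcdh8 (18.6 and 50.3) went from rank 11 in PFC to rank 3 in hippocampus, and Cdh9 (11 and 40.4) from rank 25 to rank 5. Cdh2 was at rank 4 in both (37.3 and 46.5). Summed by role, gamma genes had the highest level per length (394 in PFC, 381 in hippocampus), followed by type II cadherins (178 and 163). The sum of delta-2 protocadherins was 71.5 in PFC and 103 in hippocampus, and that of the other non-clustered protocadherins, which include Pcdh20, 6.51 and 39.6.

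**Figure D4:**
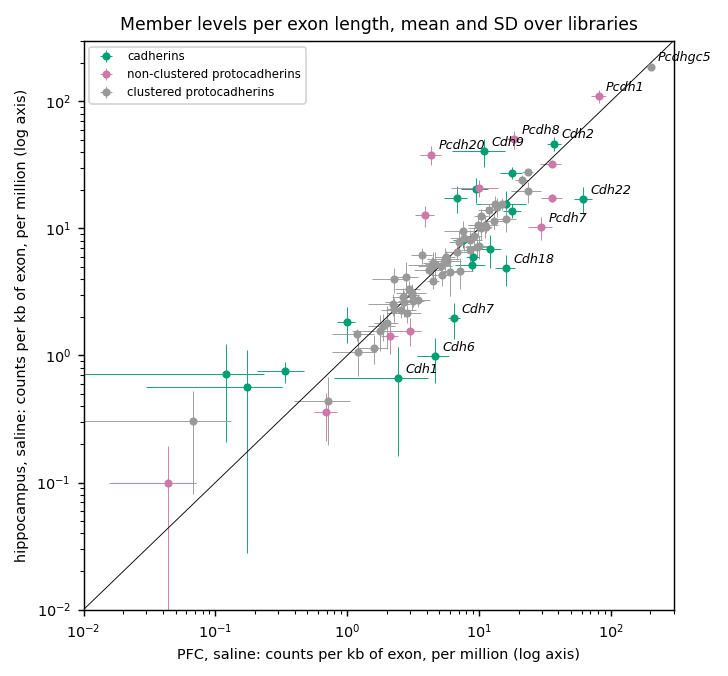
Mean level per exon length after saline in PFC (horizontal axis, n = 8) against hippocampus (vertical axis, n = 7), in counts per kilobase of exon scaled to the same total as CPM, on log axes, with 1 point per member, a line of equal level and bars for 1 SD, which are shortened where the SD nears or exceeds the mean. Pcdhgc5 is highest in both regions, Cdh22 and Pcdh7 lie on the PFC side of the line, and Pcdh8, Cdh9 and Pcdh20 on the hippocampal side.

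The deposited transcript table held 267 transcripts of the members, of which 148 were tested and 68 passed between the regions after saline, beside 24.9% of all 39163 tested transcripts. The log2 differences of both tested Pcdh20 transcripts were above 0 (3.05 and 3.16), as were those of all 6 of Cdh8 (1.08 to 1.48), all 4 of Pcdh8 (1.19 to 1.58) and all 3 of Pcdh19 (1.55 to 1.77). Those of Cdh22 (−1.82 and −2.04), Pcdh10 (4, −0.94 to −1.27) and Cdh18 (5, −1.37 to −1.97) were all below 0. The transcripts of Cdh7 were less alike, from −1.30 to −2.69. The transcript with the largest difference, ENSMUST00000027542, made up 31% ± 2.69 (SD, n = 8) of the Cdh7 counts in PFC and 16.9% ± 4.78 (SD, n = 7) in hippocampus.

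No member passed the test in any comparison of an inhibitor with saline or of the inhibitors with each other. The comparisons with saline share the saline libraries of their region, so their values are given side by side. In PFC after PICK1i, 0 of 85 tested members were called and 2 had an unadjusted p under 0.05, beside 0.201% and 5.71% of all 14911 genes (edgeR; DESeq2 also called 0 members). Pcdhgb8, a gamma gene of the B type, lay between 2.59 and 4.04 CPM after saline (median 3.48) and between 3.02 and 7.33 after PICK1i (median 4.59), a log2 difference of 0.51 (SE 0.19, unadjusted p = 0.0137, adjusted p = 0.723). Pcdhga8 (ENSMUSG00000103897) was at 14 ± 3.87 CPM after PICK1i and 17.1 ± 3.56 after saline (SD, n = 8 each; log2 −0.30, edgeR adjusted p = 0.872), and Pcdhga2 at 18 and 20.3 CPM (log2 −0.18, adjusted p = 0.919). In each the groups overlapped.

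In PFC after PSD-95i, 0 members were called and 7 of 85 had an unadjusted p under 0.05, beside 0% and 6.34% of all genes. Cdh24 was at 7.4 ± 2.04 CPM after PSD-95i and 10.8 ± 2.24 after saline (SD, n = 8 each; log2 −0.57, SE 0.16, edgeR unadjusted p = 0.000952, not called after adjustment over all genes). Cdh9 was at 7.35 ± 2.82 and 12.6 ± 5.43 CPM (log2 −0.80, SE 0.28, adjusted p = 0.651), and Pcdhgb8 at 4.84 ± 1.75 and 3.45 ± 0.44 (log2 0.47, adjusted p = 0.701). The summed deep-layer cortical markers had a median of 222 CPM in the saline libraries of PFC, 190 in those of PICK1i and 117 in those of PSD-95i, and their part in the values of Cdh24 and Cdh9 was not tested. Between PSD-95i and PICK1i in PFC, 0 members were called and 3 had an unadjusted p under 0.05, beside 0.335% and 9.6% of all genes. The smallest p there were those of Pcdhga7 (19 CPM after PSD-95i, 15.2 after PICK1i; log2 0.32, adjusted p = 0.268), Pcdh15 (13.9 and 17.7 CPM; log2 −0.36, adjusted p = 0.281) and Cdh24 (log2 −0.39, adjusted p = 0.415). PFC PICK1i replicate 6, with olfactory bulb markers, held Pcdh15 at 29.3 CPM where the next library was at 18.1, and without it the log2 difference was −0.21.

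In hippocampus after PICK1i, 0 of 85 members were called by edgeR or DESeq2 and 4 had an unadjusted p under 0.05, beside 0% and 3.85% of all 15051 genes. Pcdh18 was at 3.99 ± 1.56 CPM after PICK1i (SD, n = 8) and 2.66 ± 0.646 after saline (SD, n = 7; log2 0.56, SE 0.20, edgeR adjusted p = 0.956), where replicate 7 with its thalamic markers held the highest value, 7.63. Pcdhga8 (ENSMUSG00000023036) lay between 7.09 and 16 CPM after PICK1i and between 6.29 and 9.75 after saline (log2 0.44), and Pcdhga10 between 0.67 and 2.08 and between 1.72 and 2.5 (log2 −0.57). Both overlapped. After PSD-95i, 0 members were called and 1 had an unadjusted p under 0.05, beside 0% and 1.53% of all genes. This was Pcdh11x, at 2.43 ± 0.861 CPM after PSD-95i (SD, n = 8) and 1.58 ± 0.637 after saline (SD, n = 7; log2 0.58, SE 0.23, edgeR unadjusted p = 0.022, adjusted p = 1). Pcdhgb7 (log2 −0.29) and Pcdhb8 (log2 −0.39) followed. Between the inhibitors, 0 members were called and 3 had an unadjusted p under 0.05, beside 0% and 4.88% of all genes, with Pcdh11x at 0.66, Pcdh18 at −0.52 and Cdh12 at 0.22 on the log2 scale.

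**Figure D5:**
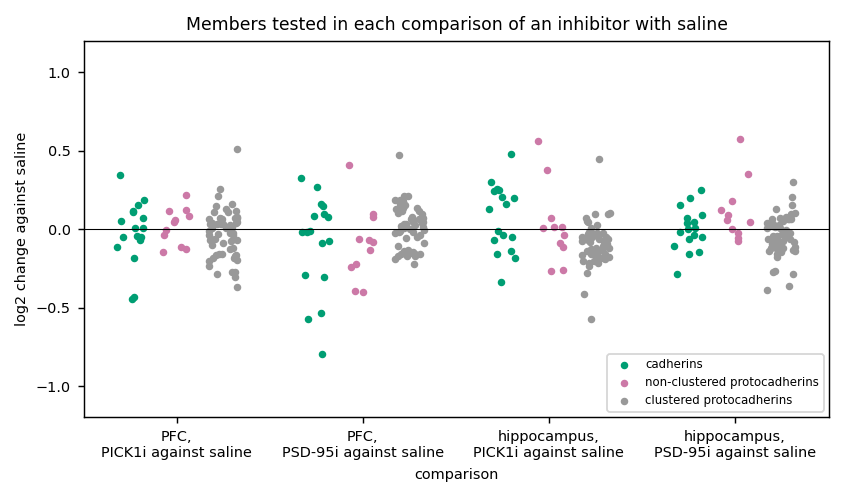
Log2 difference from saline (vertical axis) of the members tested in each comparison (horizontal axis), with 1 point per member, coloured for cadherins, non-clustered and clustered protocadherins. No point has an adjusted p under 0.05, and those named in the text include Cdh9 at −0.80 in PFC after PSD-95i and Pcdh11x at 0.58 in hippocampus after PSD-95i.

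Whether an inhibitor's effect differed between the regions was tested as an interaction. For PICK1i, 0 members were called and 2 had an unadjusted p under 0.05, beside 0.00639% and 3.86% of all genes. The smallest p belonged to Pcdh18, with a hippocampal effect larger by 0.66 on the log2 scale (unadjusted p = 0.00888, adjusted p = 1), followed by Pcdhgb8 (−0.55) and Pcdhga10 (−0.70). For PSD-95i, 0 members were called and 2 had an unadjusted p under 0.05, beside 0% and 2.73% of all genes. They were Pcdh11x (log2 0.97, unadjusted p = 0.00917) and Cdh24 (log2 0.53, unadjusted p = 0.0177). The cluster sums were not called in any comparison with an inhibitor, with absolute log2 differences of up to 0.13 and adjusted p of at least 0.666.

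Known partners and relatives of the cadherins, among them catenins, the WAVE complex, cohesin, the Fat, Dchs, Celsr and Clstn families and desmosomal cadherins, also differed between the regions. Of 54 tested genes, 21 were higher and 11 lower in hippocampus after saline, 59.3% beside 38.3% of all genes. The list was chosen with earlier results of these data known, so this share is not independent of them. The genes with the largest differences upward had low levels in PFC. In PFC after saline, the mean levels of Dsc3, Cdhr4 and Dchs2 lay below the count filter, so they entered the test through libraries where they were high. The size of their differences rests on low PFC values, and their p-values are not independent of that filter. Dsc3, a desmosomal cadherin, was at 1.62 ± 0.967 CPM in hippocampus (SD, n = 7) and 0.0423 in PFC (log2 4.83, SE 0.87, edgeR adjusted p = 1.47e-05), Cdhr4 at 3.14 ± 1.83 and 0.171 (log2 4.09) and Dchs2, of the large Dachsous cadherins, at 4.46 ± 2.11 and 0.522 (log2 3.10). In the other direction Clstn1, a calsyntenin of postsynaptic membranes, was at 1030 ± 100 CPM in hippocampus and 1850 ± 114 in PFC (SD, n = 7 and 8; log2 −0.84, edgeR adjusted p = 5.79e-15). Cdh5, the endothelial cadherin, followed with 18 and 26.9 CPM (log2 −0.58), and Fat3 with 72.7 and 98 CPM (log2 −0.43).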

How the data were processed

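The deposited gene and transcript tables hold estimated counts (expected counts) per library. Per the submitters' processing notes, bcl2fastq 2.20.0, STAR, Salmon and the genome build GRCm38 were used; versions of STAR and Salmon: not given in the sources used here, likewise annotation release and strand setting. Per the labels' protocols, libraries were stranded, poly-A selected and sequenced as 52-base pairs. Every one of the 47 sample columns was used, so 0 were left over.

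Counts were rounded and tested with edgeR 4.0.16 in R 4.3.3: TMM scaling, filterByExpr (minimum count 10, minimum total 15), a robust quasi-likelihood fit, two-sided tests and Benjamini-Hochberg adjustment over all genes tested. A gene was called at an adjusted p under 0.05, and a second rule added a change of at least 2-fold. The 2 regions were compared within each treatment, and interactions tested, in a fit of all 6 groups; inhibitors were compared within 1 region. The filter left 85 members in each region's own fit (out of 14911 genes in PFC and 15051 in hippocampus), without Pcdha8 in both, Cdh15 in PFC and Cdh1 in hippocampus. CPM use TMM-scaled totals. Cluster sums replaced the clustered genes in a separate fit. Exon lengths, positions and overlaps came from GENCODE M21 (GRCm38), which held 45143 of the gene identifiers; promoters came from RefSeq (GRCm38.p6). The procedure was tested on simulated data. Figures were drawn with matplotlib 3.10.9 in Python 3.11.15.

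Libraries were grouped by their labels. The genes named in full are the 10 called members with the smallest p in each direction between the regions after saline, the 3 with the smallest p in each inhibitor comparison and interaction, the extremes of each cluster, and, of the partner list, the called genes with the 3 largest differences in each direction; other members are given by level or range. Members and lists were chosen with earlier results of these data known. Alternatives were DESeq2 1.42.0, RLE scaling, no filter beyond 1 count, only the 2 groups compared, sums of transcripts, a replicate block, leaving out each library and leaving out the 7 libraries with markers of other structures. Summing the gamma cluster with its read-through models, and leaving out 4 more libraries whose summed markers were at least 2.5 times their group's median, were added after seeing the data. The read-through line with the symbol Pcdha4 (ENSMUSG00000103458) was not among those models and stayed in the alpha sums.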

Additional observations from a re-analysis of the deposited data

Results flagged for a closer look

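In 18 of 198 checks, over 33 named members in 6 groups each, the highest or lowest library lay far from the rest of its group by Dixon's criterion at 95%; chance alone flags about 1 in 20. Values are in CPM, with the nearest library of the same group in parentheses.

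Hippocampus PICK1i replicate 7, the library with thalamic markers, accounted for 5 of them. It was high for Cdh7 at 18 (9.79) and Pcdh18 at 7.63 (4.21). It was low for Pcdhga8 (ENSMUSG00000103897) at 4.58 (13.1), Pcdhga2 at 5.8 (18) and Pcdhga1 at 11.1 (18). Its part in each group value was not tested beyond the values without it given above.

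PFC PICK1i replicate 6, which carried olfactory bulb markers, was high for Cdh4 at 46.6 (34.2), Pcdh15 at 29.3 (18.1) and Pcdha8 at 2.14 (1.17). Other PFC libraries stood apart for 1 gene each. Replicate 4 after saline was low for Cdh24 at 5.91 (10.1), and replicate 8 after PICK1i was high for the same gene at 14.2 (10.2). Replicate 1 after saline was high for Pcdh17 at 76.5 (45.7), and had a striatal marker sum of 682 CPM. For Pcdha4 (ENSMUSG00000103458), replicate 3 after PICK1i was high at 7.23 (5.19). After PSD-95i, replicate 7 was low for Pcdhga8 (ENSMUSG00000103897) at 12.4 (16.4) and replicate 4 high for Pcdhgb7 at 11.8 (10.9).

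In hippocampus after saline, replicate 4 was high for Cdh11 at 91.0 (78.5) and for Pcdha4 (ENSMUSG00000103458) at 5.66 (5.07), and replicate 1, which carried striatal markers, for Pcdhga7 at 17.1 (12.1). After PSD-95i, replicate 3 was high for Pcdha8 at 1.26 (0.5).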

How the results depend on the processing

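DESeq2 and the added gamma sums with read-through models changed no call or direction. Sums of transcripts could not change any, since they differ from the gene counts in 1 rounded value only. The median of single clustered genes was not tested, so it could change a direction but no call, and it changed none. RLE scaling changed 1 of 208 results, dropping the filter on low counts 6, fitting only 2 groups 3 of 127 (calls gained by Pcdh1 and Pcdh9 after saline and Pcdhb4 after PSD-95i), and leaving out the 7 libraries with markers of other structures 15 (17 with the 4 added after seeing the data, 11 in all). The results compared were counts of called members, selected single members and partner genes, and cluster sums. Small moves of a count were taken as unchanged. Members lower after saline, for example, were 23 with every library (all genes 18.8%), 21 without the 7 (19.4%) and 20 without the 11 (19.4%). Without those 7, members called higher after PICK1i were 18 in place of 10 (all genes 19.4% in place of 18.5%), the alpha sum after saline was −0.312 (adjusted p = 0.0674), and the gamma sum after PICK1i was −0.109 (adjusted p = 0.105). Without all 11 these were 19 (all genes 19%), −0.306 (adjusted p = 0.097) and −0.118 (adjusted p = 0.0888), and the alpha sum after PSD-95i was −0.336 (adjusted p = 0.0596). Without the filter the alpha sum was −0.337 after saline (adjusted p = 0.0784) and −0.338 after PSD-95i (adjusted p = 0.0574), and Cdh2, Cdh20, Pcdhb8 and Pcdhgc5 after saline lost their calls (adjusted p 0.054 to 0.0971). Signs turned for values near 0 without the 7 libraries: Cdh19 after PICK1i (−0.001) and Pcdh11x after PSD-95i (0.007). Without the 11 they turned for Cdh13 after saline (0.074) and Cdh19 after PICK1i (−0.004) and PSD-95i (−0.008). Cdh23 after PICK1i, not called with all libraries, was called with RLE scaling (log2 0.71, adjusted p = 0.0498) and without the 7 libraries (log2 1.45, adjusted p = 6.07e-06). Where no construction of the alternative shows it, the cause was not tested.

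Leaving out each of the 15 saline libraries gave 12 to 14 members higher and 18 to 24 lower in hippocampus, Cdh13 at −0.197 to 0.07, Pcdha4 (ENSMUSG00000103458) at −0.145 to 0.028 and Cdh19 at −0.016 to 0.089. No member was called in any inhibitor comparison with any 1 library left out. Depth of at least 5378175 counts limits members under about 1 CPM, such as Pcdha8.

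Whether libraries are paired by replicate number could not be judged, since pairs of unequal number were not measured beside those of equal number. The regional tests treated libraries as unpaired, except in the fit with a replicate block. Over 23 pairs of the same treatment and number in both tissues, the correlation of deviations had a median of 0.02 (−0.06 to 0.25). In 6 pairs it was above 0.1. Deviations in 2 tissues of 1 mouse need not be alike, so this cannot show whether equal numbers mark 1 mouse. Pairs of equal number from 2 treatments ranged from −0.28 to 0.41 within hippocampus and from −0.22 to 0.33 within PFC. With a replicate block 7 of 208 results changed, with Cdh13 at 0.033 after saline and Pcdh11x at 0.009 after PSD-95i turning sign, and Cdh15 (log2 0.75, adjusted p = 0.0607) losing its call. Calls were gained by Pcdha8 after saline (log2 −0.80, adjusted p = 0.0424), Cdh23 after PICK1i (0.92, 0.00835), and Cdh13 (0.60, 0.0397) and Cdh20 (−0.37, 0.0366) after PSD-95i.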
